A study of Mus musculus with 3 samples.

Results

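The Wnt pathway genes described here were read in skin papillomas, benign tumours of the epidermis, and were chosen by name. An identifier belonged to the set when its symbol began with Wnt, Fzd, Dkk, Sfrp or Rspo followed by a digit, or was that of a named co-receptor, antagonist, intracellular component, transcription factor or receptor regulator such as Lrp6, Wif1, Gsk3b, Lef1 or Rnf43. This gave 66 of the 24028 identifiers counted. They were 19 Wnt ligands, 12 Frizzled and LRP receptors, 11 secreted antagonists, 2 Kremen receptors, 4 R-spondins, 3 Lgr receptors, the ubiquitin ligases Rnf43 and Znrf3, the acyltransferase Porcn, 7 cytoplasmic proteins, 4 TCF/LEF factors and Fzd10os, a long non-coding RNA gene beside Fzd10.

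Tumours had been raised in C57BL/6 mice by DMBA, a carcinogen, followed by TPA, a tumour promoter. Tg46 mice carried a transgene that drives galectin-7, a lectin of stratified epithelia, from the keratin 14 promoter, which is active in the basal layer. Lgals7-/- mice lacked galectin-7, and wild-type mice carried neither change. All 3 genotypes had received the same treatment, and the sources used here do not state the ages of the mice. Each genotype had 1 library, made from RNA pooled from 3 tumours, so every comparison sets a pair of libraries against each other and has no replicate check.

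In the canonical Wnt pathway a secreted, lipid-modified Wnt protein binds a Frizzled receptor together with LRP5 or LRP6. Dishevelled proteins then hold back the Axin, APC and GSK3 complex that otherwise marks beta-catenin for destruction, and beta-catenin acts with TCF/LEF factors on target genes. In skin the pathway is known for its part in building hair follicles and in keeping follicle stem cells, and R-spondins strengthen it by keeping RNF43 and ZNRF3 from removing the receptors.

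The libraries were shallow, with 354499 counts in Tg46, 312600 in Lgals7-/- and 172011 in wild-type. CPM below are counts per 1000000 scaled counts. A count of 0 allows a level of 8.95 CPM in Tg46, 9.11 in Lgals7-/- and 17.4 in wild-type, that of 3 counts. Lgals7 held 4, 2 and 0 counts, too few to check the labels. All 7 basal keratinocyte markers had counts in every library, at a summed 886, 778 and 602 CPM. No protocol states whether reads were assigned by strand, so a count listed at a gene may include reads from a gene across it. The wild-type library is shared by both comparisons with it, and those comparisons are not independent. In bulk tumour RNA, fewer cells of a type and less RNA per cell cannot be told apart.

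Promoters of 4 members that the results turn on are shown, each as the 250 bases before a RefSeq start site in the GRCm38.p6 build, 5′ to 3′ on the gene's strand. Dkk2 and Gsk3b were called higher, and Rnf43 lower, in both comparisons with wild-type, and Dvl2 held the most counts of any member. The windows are chr3:132085042-132085291 for Dkk2, chr16:38088751-38089000 for Gsk3b, chr11:70000342-70000591 for Dvl2 and chr11:87699647-87699896 for the downstream start of Rnf43, all on the plus strand. Capitals mark a match on either strand to CTTTGA, the core of TCF/LEF sites (TCAAAG on the opposite strand), or to TGANTCA, the AP-1 site that answers to TPA, which reads the same on both strands.
Dkk2: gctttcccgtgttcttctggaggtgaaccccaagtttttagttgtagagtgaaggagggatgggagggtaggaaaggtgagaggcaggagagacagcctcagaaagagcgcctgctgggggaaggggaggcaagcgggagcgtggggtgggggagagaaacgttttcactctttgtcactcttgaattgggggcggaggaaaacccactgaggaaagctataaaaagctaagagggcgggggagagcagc
Gsk3b: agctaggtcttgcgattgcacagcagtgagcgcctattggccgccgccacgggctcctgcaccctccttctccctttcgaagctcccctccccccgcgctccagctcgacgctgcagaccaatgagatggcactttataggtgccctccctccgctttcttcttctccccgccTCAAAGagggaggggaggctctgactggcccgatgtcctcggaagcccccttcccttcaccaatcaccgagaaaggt
Dvl2: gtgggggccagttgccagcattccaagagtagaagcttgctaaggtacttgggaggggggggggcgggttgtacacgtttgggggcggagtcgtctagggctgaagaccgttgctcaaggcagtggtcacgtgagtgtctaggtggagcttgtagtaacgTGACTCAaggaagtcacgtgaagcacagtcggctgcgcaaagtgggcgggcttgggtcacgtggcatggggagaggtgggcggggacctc
Rnf43: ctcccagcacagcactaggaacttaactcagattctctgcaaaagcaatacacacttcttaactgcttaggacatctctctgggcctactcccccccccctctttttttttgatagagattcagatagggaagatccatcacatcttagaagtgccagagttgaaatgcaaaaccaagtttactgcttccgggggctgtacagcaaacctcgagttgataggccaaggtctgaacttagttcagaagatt
Gsk3b held a TCF/LEF core and Dvl2 an AP-1 match, and the Dkk2 and Rnf43 windows shown held neither. No window shown held both motifs. Promoter windows were given for 42 of the 66 members, 51 windows in all. CTTTGA was in 7 of these windows (13.7%), against 13.8% of all 32851 windows, and TGANTCA in 2 (3.92%), against 6.75%. A match is a stretch of letters and not evidence of binding.

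Counts of the members were low and spread over nearly all of them. The median member held 10 counts in Tg46, 10 in Lgals7-/- and 4 in wild-type. Member counts summed to 1070, 964 and 419, or 0.302% (0.284 to 0.320), 0.308% (0.289 to 0.328) and 0.244% (0.221 to 0.268) of the Tg46, Lgals7-/- and wild-type libraries, with exact Clopper-Pearson 95% intervals that cover counting error only. Dvl2 alone gave 20.2% of the member counts in Tg46, 6.85% in Lgals7-/- and 13.4% in wild-type. No member was at 0 in Tg46 or Lgals7-/-, whereas 13 of 66 (19.7%) were at 0 in wild-type, where 24.1% of all identifiers were. Of those 13, 8 were Wnt ligands, namely Wnt1, Wnt2, Wnt3a, Wnt5b, Wnt6, Wnt8a, Wnt11 and Wnt16, 3 were R-spondins and 2 were the receptors Fzd1 and Fzd4. After Tg46 and Lgals7-/- had been thinned at random to the wild-type total, 2 and 4 members were at 0, against 13 in wild-type, where 16.3% and 15.8% of all identifiers were at 0, against 24.1% in wild-type.

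Read per kb of exon, the scale on which genes can be compared, most members stood above chemosensory receptor genes, a background set of olfactory, vomeronasal and taste receptors. The 1492 such genes, summed, lay at 2.37 CPM per kb in Tg46, 2.56 in Lgals7-/- and 3.25 in wild-type. Of the 65 members with a gene model, 62, 60 and 39 lay above that level, 38 of them in all 3 libraries. The median member lay at 7.18, 7.10 and 5.52 CPM per kb, close to 6.60, 6.78 and 5.69 for all identifiers with a model. Standing above the receptor genes is therefore no result about the family. The 90th percentile of single receptor genes was exceeded in every library by 4 members, which were Dvl2, Dvl3, Wnt2b and Dkk4, the last with only 5, 6 and 5 counts. Dvl2 was highest, at 102 CPM per kb in Tg46, 31.8 in Lgals7-/- and 51.5 in wild-type. Exons of Acadvl lie across it on the other strand, so its level may include reads of that gene. Dkk2 came next on average, at 51.5, 55.8 and 3.12 CPM per kb, followed by Wnt2b at 23.4, 33.3 and 19.3. Whether counts near the receptor level are expression was not tested.

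**Figure D1:**
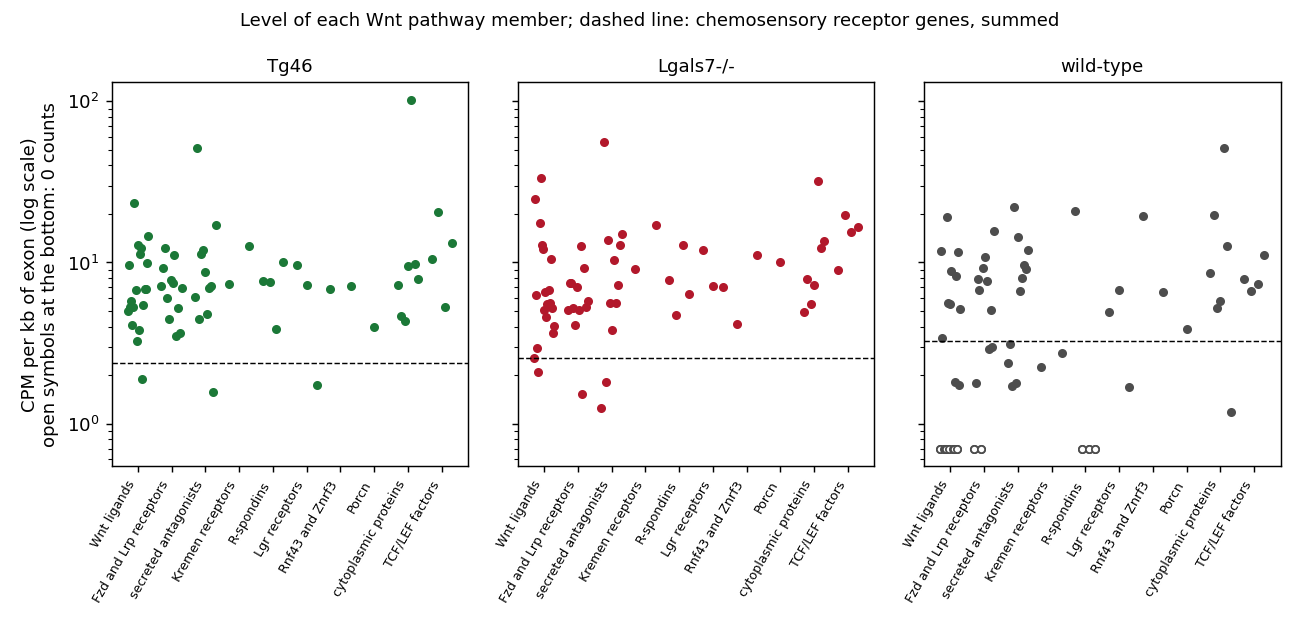
Level of each Wnt pathway member in CPM per kb of exon on a log axis, by role (horizontal axis), in Tg46, Lgals7-/- and wild-type; each point is 1 gene in 1 library, open points are genes at 0, and the dashed line is the summed level of chemosensory receptor genes. Dvl2, which has exons of Acadvl across it, lies at 102 CPM per kb in Tg46, and the 13 open points are all in wild-type.

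A member was compared where it held at least 10 counts in at least 1 library, which 46 members did and 20, with at most 9 counts in any library, did not. Of the 46, 11 passed through Tg46 alone, 11 through Lgals7-/- alone and 0 through wild-type alone. Passing through 1 library alone selects for a higher count there. For a member at 0 in wild-type it also forces a call, since 10 counts in Tg46 or Lgals7-/- against 0 suffice. Of the 11 members called higher than wild-type in at least 1 comparison, 7 were at 0 there. For other members passing does not force a call. The counts of calls are therefore a description. Just inside this limit lay Axin2, Fzd1, Fzd4, Fzd10, Porcn, Sfrp4 and Wnt5b, each with 10 counts in its highest library, and just outside lay Wnt6 and Wnt7b, with 9. A call needed a ratio of scaled counts of at least 2-fold and an exact 95% interval without 1. In Tg46 over wild-type 7 of the 46 were called higher (15.2%) and 3 lower (6.52%), against 13.7% and 13.9% of all 12940 genes tested. In Lgals7-/- over wild-type 7 were likewise higher and 3 lower, against 13.3% and 13.7%. In Tg46 over Lgals7-/- 3 were called higher (6.52%) and 5 lower (10.9%), against 8.43% and 7.73%. The shares called higher in the comparisons with wild-type lie near those of all genes and are no result about the family.

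The median log2 ratio of the 46 was 0.41 in Tg46 over wild-type and 0.68 in Lgals7-/- over wild-type, where all genes tested had 0.11 and 0.10. Where a library held 0 and the bound against 3 counts was used instead, the medians were 0.23 and 0.55 for members and 0.09 and 0.07 for all genes. These medians also carry the filter, since members passed through Tg46 or Lgals7-/- alone but none through wild-type alone. Over the 25 members with at least 30 summed counts they were 0.23 and 0.25, against 0.02 and -0.01 for all such genes. Without a filter they were 0.31 and 0.66, against 0.14 and 0.13. With no filter on counts, wild-type, the library with the fewest counts, was the lowest of the 3 for 38 of the 66 members (57.6%), against 40.9% of all identifiers. In Tg46 over Lgals7-/- the medians were -0.07 and -0.03. With upper-quartile scaling, which moved the median of all genes to 0.35 and 0.31 in Tg46 and Lgals7-/- over wild-type, 11 members were called higher and 2 lower in each, and all genes gave 2355 higher and 1369 lower in Tg46 and 2240 and 1403 in Lgals7-/-. TMM factors from all identifiers moved that median to 0.26 and 0.24 and gave 11 higher and 3 lower in Tg46 and 9 and 2 in Lgals7-/-. All genes then gave 2101 higher and 1472 lower in Tg46 and 2096 and 1475 in Lgals7-/-. In Tg46 over Lgals7-/-, 2 members were higher and 6 lower with DESeq2 factors and with total counts. All genes gave 1028 higher and 1057 lower with DESeq2 factors, and 757 and 1370 with total counts. Over all genes, TMM scaling had given 1768 higher and 1793 lower in Tg46 over wild-type, 1715 and 1772 in Lgals7-/- over wild-type and 1091 and 1000 in Tg46 over Lgals7-/-.

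**Figure D2:**
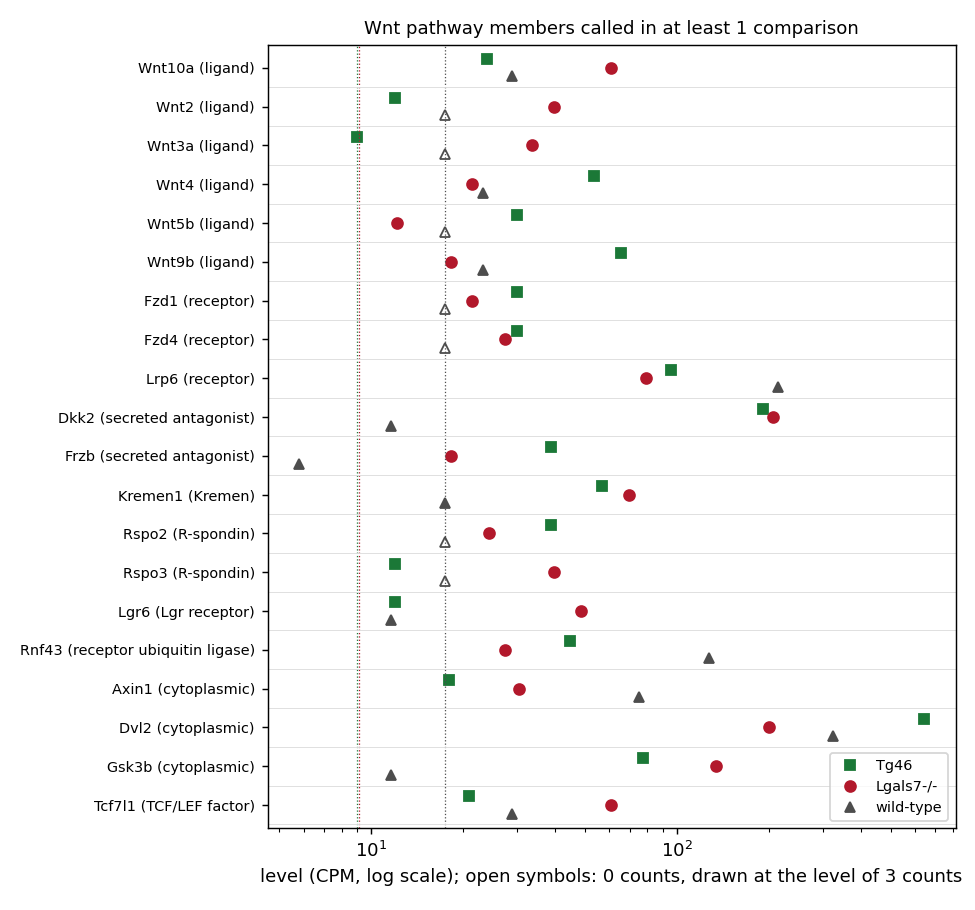
Level in CPM (log axis) of the 20 members called in at least 1 comparison, with Tg46, Lgals7-/- and wild-type as 3 symbols per gene; open symbols mark 0 counts and are drawn at the level of 3 counts, which the dotted lines give for each library. Dkk2 and Gsk3b lie far below the other libraries in wild-type, and Lrp6 and Rnf43 above them.

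The summed level of the Wnt ligands was lowest in wild-type, at 543 CPM in Tg46, 574 in Lgals7-/- and 347 in wild-type. Suprabasal keratinocyte markers, 6 in all and none at 0, lay at 1062, 1124 and 532 CPM, and their part in this was not tested. The ligand ratio to wild-type was 1.56 (95% interval 1.16 to 2.13) for Tg46 and 1.65 (1.23 to 2.25) for Lgals7-/-, and ran 1.47 to 1.85 and 1.61 to 1.92 under the other scalings. Of the 19 ligands 10 were compared. In Tg46 over wild-type 1 was called higher (10%, against 13.7% of all genes), and in Lgals7-/- over wild-type 2 were (20%, against 13.3%). In Tg46 over Lgals7-/- 2 were called higher and 2 lower (20% each, against 8.43% and 7.73%).

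Wnt2b, a canonical ligand, had the most counts of the ligands, with 33 in Tg46, 46 in Lgals7-/- and 14 in wild-type, and was called in no comparison. Wnt5a, the prototype of non-canonical signalling, held 10, 17 and 12 counts and was likewise not called. Wnt5b, its close relative, held 10 counts in Tg46, 4 in Lgals7-/- and 0 in wild-type. Tg46 lay 1.72-fold above 3 counts in wild-type, with an exact lower limit of 1.16. Such a fold for a gene at 0 sets the observed count against 3 counts in wild-type and leaves out counting error in the other library. The exact lower limits of the called ratios of members at 0 in wild-type ran from 1.04 for Fzd4 in Lgals7-/- to 1.60 for Wnt2 and Rspo3 in Lgals7-/-. With 5 counts added, each of these calls was lost. Wnt2 held 4 counts in Tg46, 13 in Lgals7-/- and 0 in wild-type. Wnt3a, a strong activator of beta-catenin signalling, held 3, 11 and 0. These ligands were highest in Lgals7-/-, 2.27-fold and 1.93-fold above 3 counts in wild-type, with exact lower limits of 1.60 and 1.32. Wnt2 was also called lower in Tg46 than in Lgals7-/-, at a ratio of 0.327 (0.0718 to 0.978).

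Wnt9b, a ligand best known from kidney development, held 22 counts in Tg46, 6 in Lgals7-/- and 4 in wild-type. Tg46 stood apart from the other libraries, with 3.40 times the Lgals7-/- level (1.42 to 10.9). Its ratio to wild-type was 2.58 in Tg46, with an interval that included 1 but called under upper-quartile factors, TMM factors from all identifiers and thinning, and 0.758 in Lgals7-/-. Wnt4 had the same order of Tg46 above the others, with 18, 7 and 4 counts and a ratio of 2.42 (1.01 to 7.15) to Lgals7-/-, a call lost with DESeq2 factors, with total counts and with 5 counts added. Wnt10a, a ligand required for normal hair and teeth, ran the other way, with 8 counts in Tg46, 20 in Lgals7-/- and 5 in wild-type and a Tg46 to Lgals7-/- ratio of 0.407 (0.150 to 0.931), called lower but lost with 5 counts added. The other tested ligands, Wnt3 and Wnt9a, were not called. The 9 below 10 counts were Wnt1, Wnt6, Wnt7a, Wnt7b, Wnt8a, Wnt8b, Wnt10b, Wnt11 and Wnt16. Porcn, which attaches the lipid that Wnt proteins need for secretion, held 4, 10 and 2 counts and was not called.

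The receptors summed to 516 CPM in Tg46, 459 in Lgals7-/- and 544 in wild-type, with ratios to wild-type of 0.949 (0.734 to 1.23) and 0.843 (0.648 to 1.10). The LRP co-receptors alone summed to 131, 131 and 243 CPM, with ratios of 0.540 (0.346 to 0.845) and 0.537 (0.343 to 0.842). Lrp6 (chromosome 6, 134446476 to 134566965, minus strand of mm10), the co-receptor that passes the canonical signal inward, held 32 counts in Tg46, 26 in Lgals7-/- and 37 in wild-type. Scaled to depth these were 95.5, 79.0 and 214 CPM, so wild-type was the highest and the other libraries lay close together. The ratio to wild-type was 0.447 (0.269 to 0.736) in Tg46 and 0.371 (0.214 to 0.626) in Lgals7-/-, and both were called lower. The Tg46 call was lost with upper-quartile factors and in thinned libraries. Lrp5, its paralogue, held 12, 17 and 5 counts and was called in no comparison.

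Of the 10 Frizzled genes 8 were compared. Fzd4 held 10 counts in Tg46, 9 in Lgals7-/- and 0 in wild-type, and both were called higher. They lay 1.72-fold and 1.58-fold above 3 counts in wild-type, with exact lower limits of 1.16 and 1.04. Fzd1 held 10, 7 and 0 counts and was called higher in Tg46 over wild-type, 1.72-fold above 3 counts with an exact lower limit of 1.16. Lgals7-/- over wild-type was not called, and Tg46 over Lgals7-/- had a ratio of 1.38 (0.482 to 4.34). Fzd3 and Fzd5, the Frizzled genes with the most counts, held 26, 22 and 15 and 18, 16 and 11, close to equal once scaled. Fzd2, Fzd6, Fzd7 and Fzd10 were compared and not called, and Fzd8 and Fzd9 fell below the limit. No Frizzled or LRP gene was called in Tg46 over Lgals7-/-, where 8.43% of all genes were called higher and 7.73% lower.

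Dkk2 was the largest difference among the secreted antagonists, which bind Wnt proteins or their co-receptors outside the cell. Dkk2 (chromosome 3, 132085292 to 132180304, plus strand of mm10) encodes a Dickkopf protein that binds LRP5 and LRP6 and can block or weakly activate signalling. It held 64 counts in Tg46, 68 in Lgals7-/- and 2 in wild-type. The Tg46 and Lgals7-/- libraries were alike, with a ratio of 0.925 (0.647 to 1.32) between them, and wild-type was far below both. The ratio to wild-type was 13.3 (4.38 to 139) in Tg46 and 14.4 (4.75 to 150) in Lgals7-/-, and both calls held under each scaling, with 5 counts added, in thinned libraries and at a 4-fold threshold. No annotated exon lies across Dkk2 on the other strand. The other Dickkopf genes stayed below the limit for comparison. Dkk1 held 5, 1 and 1 counts and Dkk3 5, 2 and 1, in Tg46, Lgals7-/- and wild-type.

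The antagonists summed to 406 CPM in Tg46, 410 in Lgals7-/- and 226 in wild-type, a ratio to wild-type of 1.80 (1.25 to 2.64) and 1.82 (1.26 to 2.67). Without Dkk2 the sums were 215, 203.5 and 214 CPM and the ratios 1.003 (0.666 to 1.53) and 0.951 (0.627 to 1.46), so the other antagonists together were nearly level. Frzb, a secreted Frizzled-related protein that sequesters Wnt, held 13 counts in Tg46, 6 in Lgals7-/- and 1 in wild-type and a Tg46 to wild-type ratio of 4.64 (1.01 to 285), called higher but lost with DESeq2 factors and with total counts. Wif1, a Wnt-binding inhibitor, held 14, 12 and 5 counts, Sfrp1 7, 15 and 5 and Sfrp4 10, 10 and 7, none of them called. Sfrp2, Sfrp5, Dkk4 and Notum, an enzyme that strips the lipid from Wnt proteins, were below the limit.

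Kremen1 and Kremen2 are cell-surface receptors that help Dickkopf proteins to remove LRP6. Kremen1 held 19 counts in Tg46, 23 in Lgals7-/- and 3 in wild-type, with wild-type the lowest. Lgals7-/- over wild-type was called at 3.52-fold (1.22 to 20.9), while the Tg46 ratio of 2.87 (0.961 to 17.2) was not called. The Lgals7-/- call was lost with 5 counts added, and Tg46 was called higher with upper-quartile factors, TMM factors from all identifiers and thinned libraries. Kremen2 held 9, 12 and 1 counts and was not called. Together they stood at 83.5 CPM in Tg46, 106 in Lgals7-/- and 23.1 in wild-type, with ratios to wild-type of 3.61 (1.26 to 14.2) and 4.59 (1.64 to 17.8). A gene, 9530082P21Rik, has an exon across Kremen2 and held 41, 31 and 4 counts.

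**Figure D3:**
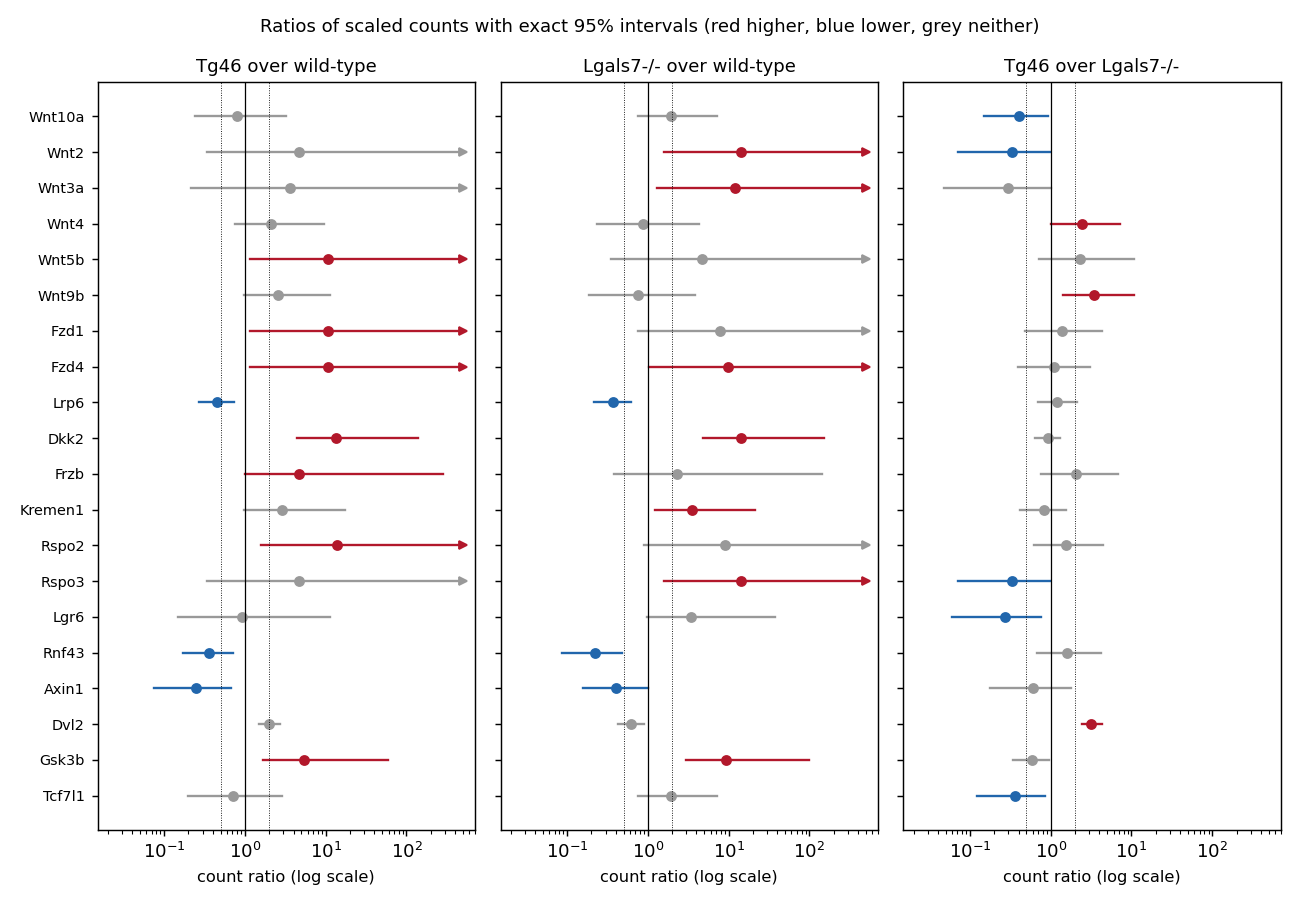
Ratio of scaled counts (log axis) for the 20 members called in at least 1 comparison, in 3 panels: Tg46 over wild-type, Lgals7-/- over wild-type and Tg46 over Lgals7-/-. Points are ratios with 0.5 counts added, lines are exact 95% intervals with arrows where they run past the axis, dotted lines mark 2-fold, and Dkk2 shows 13.3 and 14.4 against wild-type but 0.925 between Tg46 and Lgals7-/-.

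R-spondins are secreted proteins that raise Wnt sensitivity through the Lgr receptors. Rspo2 held 13 counts in Tg46, 8 in Lgals7-/- and 0 in wild-type. Tg46 lay 2.23-fold above 3 counts in wild-type, with an exact lower limit of 1.57. Rspo3 held 4, 13 and 0 counts, and Lgals7-/- lay 2.27-fold above 3 counts in wild-type, with an exact lower limit of 1.60. Rspo3 was called lower in Tg46 than in Lgals7-/- at a ratio of 0.327 (0.0718 to 0.978). The Rspo3 call between Tg46 and Lgals7-/- was lost in thinned libraries, and Rspo2 was not called between them. Rspo1 held 5, 5 and 7 counts and Rspo4 8, 5 and 0, both below the limit for comparison. Rspo3 has an exon of Gm48159 across it.

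Lgr5 and Lgr6 mark stem cells of the hair follicle, and Lgr4 is more widely expressed. Lgr5 held 25 counts in Tg46, 24 in Lgals7-/- and 12 in wild-type, or 74.6, 72.9 and 69.5 CPM, nearly level, and was called in no comparison. Lgr4 held 19, 23 and 5 counts and was also not called. Lgr6 held 4 counts in Tg46, 16 in Lgals7-/- and 2 in wild-type. Lgals7-/- over wild-type, at 3.46 (0.987 to 37.7), was not called. Tg46 over Lgals7-/- was called lower at 0.268 (0.0597 to 0.761).

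Rnf43 and Znrf3 are membrane ubiquitin ligases that clear Frizzled receptors and are themselves Wnt targets. Rnf43, on the plus strand of mm10 chromosome 11 from 87662722 to 87735539, held 15 counts in Tg46, 9 in Lgals7-/- and 22 in wild-type, or 44.8, 27.3 and 127 CPM, with wild-type highest. The ratio to wild-type was 0.355 (0.170 to 0.709) in Tg46 and 0.222 (0.0870 to 0.485) in Lgals7-/-, and both were called lower. Znrf3 held 19, 29 and 9 counts and was not called, with a ratio above 1 in each comparison with wild-type.

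Among the cytoplasmic proteins, Gsk3b and Dvl2 gave the widest differences. Gsk3b (chromosome 16, 38089001 to 38246084, plus strand of mm10), the kinase that marks beta-catenin for destruction, held 26 counts in Tg46, 44 in Lgals7-/- and 2 in wild-type. These were 77.6, 133.7 and 11.6 CPM, with wild-type far below the others. The ratio to wild-type was 5.46 (1.68 to 58.3) in Tg46 and 9.34 (3.01 to 98.3) in Lgals7-/-, and both were called higher. Between Tg46 and Lgals7-/- the ratio was 0.585 (0.343 to 0.964), inside the 2-fold limit. No annotated exon lies across it.

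Axin1, the scaffold of the destruction complex, held 6 counts in Tg46, 10 in Lgals7-/- and 13 in wild-type and was called lower in both comparisons with wild-type, at 0.248 (0.0742 to 0.671) and 0.408 (0.159 to 0.997). The Lgals7-/- call was lost with upper-quartile factors, with total counts, with TMM factors from all identifiers and in thinned libraries, and the Tg46 call in thinned libraries. Axin2, a widely used readout of beta-catenin signalling, held 8, 10 and 5 counts and was not called, with ratios to wild-type of 0.797 (0.238 to 3.21) in Tg46 and 1.002 (0.327 to 3.91) in Lgals7-/-. Apc, the tumour suppressor of the complex, held 39, 26 and 24 counts and was not called.

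Dvl2 (chromosome 11, 70000595 to 70012301, plus strand of mm10), a Dishevelled protein that relays the signal from Frizzled, held 216 counts in Tg46, 66 in Lgals7-/- and 56 in wild-type. Tg46 stood well above the others, at 644 CPM against 200.5 in Lgals7-/- and 324 in wild-type. It was 3.20-fold higher in Tg46 than in Lgals7-/- (2.43 to 4.30) and the only member with an interval wholly beyond 2-fold in that comparison. Against wild-type the ratio was 1.98 (1.48 to 2.72) in Tg46 and 0.618 (0.427 to 0.900) in Lgals7-/-, both inside the 2-fold limit. With upper-quartile factors, TMM factors from all identifiers or thinned libraries the Tg46 ratio passed it. The exons of Acadvl, a mitochondrial dehydrogenase gene on the other strand, overlap those of Dvl2, and Acadvl held 28, 12 and 4 counts, so reads of the pair may not have been separated. Dvl1 held 16, 12 and 5 counts and Dvl3 21, 26 and 14, neither called. The cytoplasmic proteins summed to 991 CPM in Tg46, 589 in Lgals7-/- and 689 in wild-type, and without Dvl2 to 346, 389 and 365.

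TCF/LEF factors carry the signal at the genes. Tcf7l2 held the most counts, with 39 in Tg46, 48 in Lgals7-/- and 17 in wild-type, and Lef1 held 31, 26 and 12. Neither was called, nor was Tcf7 with 18, 17 and 3, although Tcf7 in Tg46 over wild-type passed as higher with upper-quartile factors, TMM factors from all identifiers and thinning, and in Lgals7-/- with thinning. Tcf7l1, a repressor of the undifferentiated epidermis, held 7 counts in Tg46, 20 in Lgals7-/- and 5 in wild-type and was called lower in Tg46 than in Lgals7-/- at 0.359 (0.123 to 0.846), a call lost in thinned libraries. An exon of Gm15401 lies across Tcf7l1 and that gene held 19, 15 and 8 counts.

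**Figure D4:**
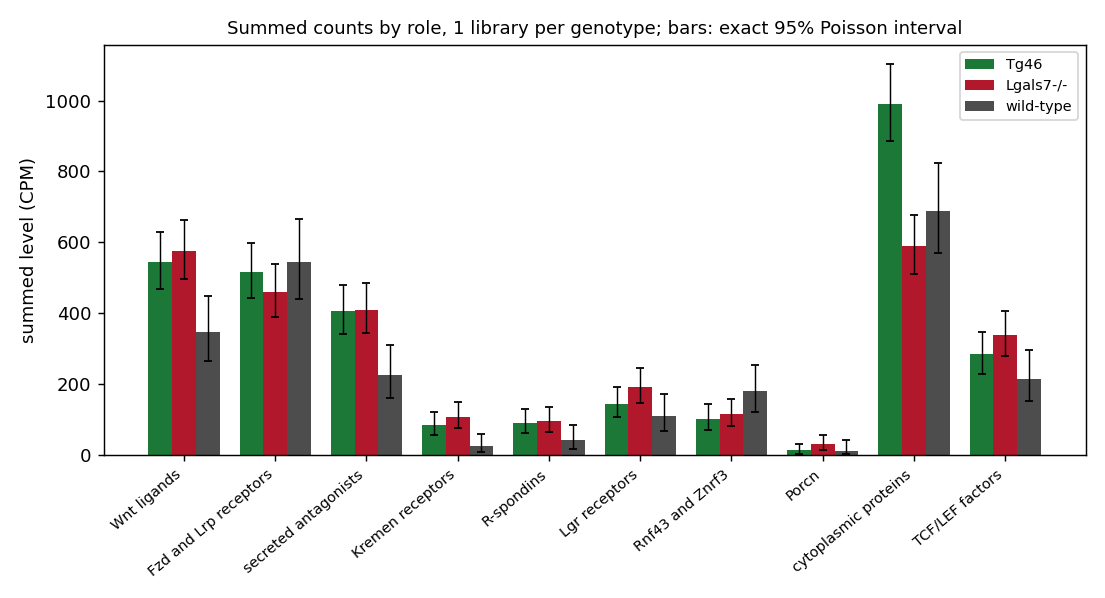
Summed level in CPM of the members of each role, with bars for Tg46, Lgals7-/- and wild-type (1 library each) and exact 95% Poisson intervals of the summed counts. Wnt ligands and secreted antagonists are lowest in wild-type, and cytoplasmic proteins are highest in Tg46, at 991 CPM. Without Dkk2 the antagonists sum to 215 CPM in Tg46, 203.5 in Lgals7-/- and 214 in wild-type. Without Dvl2 the cytoplasmic proteins sum to 346, 389 and 365.

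The 5 members called lower in Tg46 than in Lgals7-/- were Wnt2, Wnt10a, Rspo3, Lgr6 and Tcf7l1, all highest in Lgals7-/-. All 5 passed the limit of 10 counts through Lgals7-/- alone. The limit thus selected them for a higher count there than in Tg46, and their shared order is a description. Hair follicle markers were also lower in Tg46 than in Lgals7-/-, and their part in these calls was not tested. Of 9 such markers, from trichohyalin to hair keratins, 6 were compared. In Tg46 over Lgals7-/- 4 of them were called lower and 0 higher (66.7% lower, against 7.73% of all genes). The 9 summed to 812 CPM in Tg46, 4299 in Lgals7-/- and 1302 in wild-type, none at 0 in any library. In Lgals7-/- over wild-type 3 of the 6 were called higher (50%, against 13.3%), and in Tg46 over wild-type 2 were called lower (33.3%, against 13.9%). Most of that sum was Tchh, with 209, 1202 and 160 counts. Melanocyte markers, 5 in all and none at 0, summed to 1934, 881 and 1256 CPM, and most of that was Pmel, with 624, 257 and 207 counts. Of the 2 melanocyte markers compared, 1 was called higher and 1 lower in Tg46 over Lgals7-/- (50% each, against 8.43% and 7.73%). Skeletal muscle markers, 7 in all and none at 0, were highest in wild-type, at 1232, 1425 and 1730 CPM. The part of these markers in the members' calls was not tested. Dermal papilla markers stood at 489, 526 and 428 CPM over 7 genes, with Crabp1 at 0 in Lgals7-/- and wild-type. Fibroblast markers stood at 445, 407 and 365 CPM over 7, with Dpt and Lum at 0 in wild-type.

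Outside the set, other genes of the pathway were read from 6 lists. Of 20 genes known as Wnt targets in epithelia 14 were compared. In Tg46 over wild-type 5 were called higher and 1 lower (35.7% and 7.14%, against 13.7% and 13.9% of all genes). In Lgals7-/- over wild-type it was 4 higher and 1 lower (28.6% and 7.14%, against 13.3% and 13.7%), and in Tg46 over Lgals7-/- 2 each way (14.3%, against 8.43% and 7.73%). No test bears on these lists. Sox4, a transcription factor of progenitor cells with an exon of Gm26735 across it, held 19 counts in Tg46, 25 in Lgals7-/- and 0 in wild-type. These lay 3.27-fold and 4.37-fold above 3 counts in wild-type, with exact lower limits of 2.41 and 3.30. Ephb2, an ephrin receptor, held 29, 30 and 2 counts and was 6.08-fold and 6.40-fold higher. Tnfrsf19, a receptor of hair follicle progenitors, held 9, 15 and 0 counts. Against these, Msx2, a homeobox gene of the hair follicle, held 9, 7 and 21 counts and was called lower in both libraries than in wild-type, at 0.228 and 0.183. Birc5, an inhibitor of apoptosis of dividing cells, held 23, 5 and 0 counts and Vegfa, an angiogenic growth factor, 30, 12 and 2, both called higher in Tg46 against each of the other libraries. Jun, an AP-1 subunit with an exon of Junos across it, held 1, 12 and 4 counts and Cd44, a hyaluronan receptor, 15, 38 and 14, both called lower in Tg46 than in Lgals7-/-.

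Of 11 genes of beta-catenin and its degradation compared, 3 were called lower in Tg46 over wild-type and 2 were called higher (27.3% and 18.2%, against 13.9% and 13.7% of all genes). In Lgals7-/- over wild-type 6 were called lower and 0 higher (54.5% lower, against 13.7% of all genes). In Tg46 over Lgals7-/- it was 0 lower and 2 higher (18.2% higher, against 8.43%). Btrc, the ubiquitin ligase subunit that recognises beta-catenin, held 13 counts in Tg46, 12 in Lgals7-/- and 20 in wild-type, with ratios to wild-type of 0.340 and 0.320. Siah1a held 38, 8 and 21 counts, at 0.207 in Lgals7-/- over wild-type (0.0766 to 0.470) and 4.45 in Tg46 over Lgals7-/- (2.14 to 11.6). Tnks2, a tankyrase that acts on Axin, held 14, 6 and 12 counts and the casein kinase Csnk1a1 held 20, 14 and 21, both called lower in Lgals7-/- than in wild-type, Csnk1a1 also in Tg46. Fbxw11, a relative of Btrc, held 19, 22 and 28 counts and was called lower than wild-type in both. The casein kinases Csnk1d, with 57, 23 and 12 counts, and Csnk1e, with 31, 25 and 6, were both higher by call in Tg46 over wild-type, Csnk1d also over Lgals7-/-. Btrc, Siah1a, Csnk1d and Csnk1e have exons of other genes across them. Ctnnb1, the beta-catenin gene, named here after its values were seen, held 7, 1 and 0 counts, below the limit for comparison.

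Of 12 nuclear co-factors compared, 3 were called higher and 0 lower in each comparison with wild-type (25% higher, against 13.7% of all genes in Tg46 and 13.3% in Lgals7-/-). Crebbp, a histone acetyltransferase, held 73 counts in Tg46, 73 in Lgals7-/- and 9 in wild-type, with ratios of 3.99 (2.09 to 9.51) and 4.06 (2.12 to 9.68). Bcl9, a beta-catenin co-activator, held 27, 25 and 4 counts and was called higher in both. Bcl9l, its relative, held 25, 16 and 4 counts and was called higher in Tg46 over wild-type. In Tg46 over Lgals7-/- Ctbp2, a co-repressor with 50, 22 and 15 counts, was called higher. The co-repressors Hdac1, with 10, 26 and 8 counts, and Tle2, with 10, 24 and 3, were called lower, and Tle2 passed as higher in Lgals7-/- over wild-type. Exons of other genes lie across Bcl9l and Tle2. Of 16 genes of non-canonical receptors and planar polarity, 0 were called higher and 2 lower in Tg46 over wild-type (12.5% lower, against 13.9% of all genes). In Lgals7-/- over wild-type 2 were higher and 3 lower (12.5% and 18.8%, against 13.3% and 13.7%). In Tg46 over Lgals7-/- it was 1 each way (6.25%, against 8.43% and 7.73%). Ror2, a receptor for Wnt5a, held 6, 8 and 19 counts and was called lower than wild-type in both, at 0.172 (0.0532 to 0.424) and 0.229 (0.0837 to 0.529). Ror1, its relative, held 6, 8 and 12 and was called lower in both. The polarity cadherins Celsr1, with 33, 40 and 8 counts, and Celsr3, with 29, 51 and 9, passed as higher in Lgals7-/- over wild-type. Between Tg46 and Lgals7-/- Invs, a ciliary protein with 81, 32 and 36 counts and an exon of Tex10 across it, was called higher, and Ryk, a Wnt receptor with 8, 19 and 7, lower. Of 4 secretion genes compared, 0 were called higher and 1 lower in Tg46 over wild-type (25% lower, against 13.9% of all genes). In Lgals7-/- over wild-type 1 was higher and 1 lower (25% each, against 13.3% and 13.7%). In Tg46 over Lgals7-/- 1 was lower and 0 higher (25% lower, against 7.73%). These were Wls, the carrier of Wnt proteins to the cell surface, with 10, 19 and 14 counts (lower in Tg46 over wild-type), and the glypicans Gpc3, with 14, 6 and 11 (lower in Lgals7-/- over wild-type), and Gpc4, with 3, 16 and 1 (higher in Lgals7-/- over wild-type and lower in Tg46 over Lgals7-/-). Of 7 other modulators, 1 was called higher in Tg46 over wild-type (14.3%, against 13.7% of all genes). This was Draxin, with 16, 12 and 1 counts, and 0 were called in the other comparisons.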

How the data were processed

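Each genotype gave 1 library from 3 pooled tumours, per the labels. The authors deposited raw read counts by Entrez identifier, on mm10 per the submitters' processing notes. Aligner, counter and strand setting: not given in the sources used here. Symbols (23968 identifiers) came from RefSeq, and exons, positions and overlaps from GENCODE M21 (GRCm38). Libraries were scaled by edgeR 4.0.16 TMM factors (0.945 in Tg46, 1.05 in Lgals7-/- and 1.004 in wild-type), from genes that reached 10 counts in any library, in R 4.3.3. Ratios had 0.5 counts added, and intervals are exact Clopper-Pearson. They were tested on counts simulated with counting error only, which cannot check variation between tumours or libraries. With 1 library per genotype no p-value is given. Counts are given for every called member and up to 3 members with most counts per role, and for up to 4 called genes with the largest ratio in each list of other pathway genes; further members were named for their roles after their values were seen. Members and gene lists, including the chemosensory genes, were chosen with earlier results of these data known. Alternatives were DESeq2 1.42.0, total-count and upper-quartile scaling, other filters, added counts and call rules, thinning and genes without an opposite-strand exon. TMM factors from all identifiers were added after seeing the data. Python 3.11.15, scipy 1.17.1 and pandas 2.3.3 were used.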

Additional observations from a re-analysis of the deposited data

How the results depend on the processing

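No paired analysis was possible because every genotype was read in a single library. Of 13 alternatives, 8 could end a call (scalings, 5 counts added, stricter rules, thinning). Under these the 28 ratios of called members kept their call in 152 of 213 recomputations, lost it in 61 and reversed in 0. Counts below that moved by over 1.5 times are in the order Tg46 over wild-type, Lgals7-/- over wild-type, Tg46 over Lgals7-/-; where fewer are given the comparisons are named. Filters and thinning test fewer than the 12940 genes and 46 members above. At least 30 summed counts left 8351 genes and 25 members to test, and 100 counts left 347 and 1. Thinning left 8497 and 25, and leaving out opposite-strand exons 8633 and 36. For the other settings the cause was not tested. Upper-quartile factors gave 11 members higher in each comparison with wild-type, and TMM factors from all identifiers 11 in Tg46 over wild-type. At least 30 summed counts left 1140, 994 and 680 genes higher and 1110, 1073 and 523 lower, with 2 and 3 members higher than wild-type and 2 lower in Tg46 over Lgals7-/-. A filter of 100 counts left 108, 31 and 104 higher and 6, 20 and 4 lower, and Dvl2 as the only member, so that members higher were 0, 0 and 1, members lower 0, 0 and 0, and the median -0.69 in Lgals7-/- over wild-type and 1.68 in Tg46 over Lgals7-/-, both reversed. With 5 counts added, 658 and 584 genes and 2 and 2 members were higher than wild-type. The member median in Tg46 over wild-type then reversed to -0.07, and that of all genes fell to -0.22. Without a filter the member median in Tg46 over Lgals7-/- reversed to 0.04. Intervals wholly beyond 2-fold left 266, 235 and 147 genes higher and 449, 449 and 86 lower, and 1, 2 and 1 members higher and 0, 1 and 0 lower. A 4-fold threshold left 1134 higher in Tg46 over wild-type and 325 in Tg46 over Lgals7-/-, 763, 716 and 309 lower, 1, 1 and 0 members lower and 0 members higher in Tg46 over Lgals7-/-. Fold alone gave 3307, 3269 and 1808 higher, 1653 lower in Tg46 over Lgals7-/-, 17, 18 and 6 members higher and 8 lower in Tg46 over Lgals7-/-. Thinned libraries gave 1139 lower in Tg46 over wild-type, 635 higher and 428 lower in Tg46 over Lgals7-/-, and 1 member lower in each of these. Genes with no opposite-strand exon gave 1071 higher in Tg46 over wild-type, and 593 higher with 3 members lower in Tg46 over Lgals7-/-. At this depth 20 of 66 members were not compared, and 11 reached 10 counts in every library.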

Other observations

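Of the 65 members with a gene model, 14 have an exon that overlaps an exon on the opposite strand, and 3 of these (Dvl2, Rspo3 and Tcf7l1) are among the 20 called. Over all identifiers with a model the share with such an overlap is 24.4%, so the 14 are no result about the family. Dvl1, a Dishevelled gene, held 16 counts in Tg46, 12 in Lgals7-/- and 5 in wild-type, whereas Tas1r3, a taste receptor gene across it, held 76, 69 and 26. Wnt7b, an epithelial ligand, held 9, 9 and 7 counts and AU022754, across it, 6, 10 and 0. Fzd10os, which lies beside Fzd10 without overlapping it in the RefSeq annotation, held 8, 7 and 7 counts and had no gene model in GENCODE M21, while Fzd10 itself held 10, 8 and 1 and was called in no comparison.

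Outside the tested genes, 2 members below 10 counts had intervals that excluded 1 and a ratio past 2-fold. Wnt6, a ligand, held 9 counts in Tg46, 4 in Lgals7-/- and 0 in wild-type. Tg46 lay 1.55-fold above 3 counts in wild-type, with an exact lower limit of 1.02. Sfrp5, a secreted Frizzled-related protein, held 1 count in Tg46, 8 in Lgals7-/- and 3 in wild-type, with a ratio of Tg46 to Lgals7-/- of 0.173 (0.00277 to 0.916). Wnt2 and Rspo3 held the same 4, 13 and 0 counts, so their equal ratios and shared calls in 2 comparisons follow from that tie.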
